A study of Mus musculus with 12 samples.

Results

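The genes described are 8 that encode mitochondrial proteins known to be induced by low oxygen: Ndufa4l2, Cox4i2, Higd1a, Pdk1, Bnip3, Bnip3l, Ak4 and Fam162a. They were taken by symbol from a table of 25745 genes, and were chosen by their levels in calcification medium and in control, since several stood lower in the former. Averaged over the 12 libraries, all 8 reached 1 FPKM (fragment number scaled to gene length and library size) and were among the 10758 genes tested. Pdk1 reached it only through its control libraries. RNA was sequenced from aortic smooth muscle cells of wild-type C57BL/6J mice aged 5 to 6 weeks, used between passages 5 and 8, in 4 groups of 3 libraries. Control cells were kept in basal medium, and the other 3 groups in calcification medium, which contained 3.0 mM sodium phosphate, for 7 days. A group of these carried a lentivirus without insert (vector), and another a lentivirus labelled as carrying Klotho; whether any virus was given to control cells or to cells in calcification medium alone is not stated. Kl, the gene for Klotho, was listed at 0 in 11 of the 12 libraries, so the last group is called the Klotho label and any direction rests on that label. Nothing in the labels tells the origin of the replicates (animals, cultures or repeat preparations), so each p-value speaks of the spread among these libraries, possibly a technical one.

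In low oxygen the hypoxia-inducible factors (HIF) are no longer marked for degradation by prolyl hydroxylases, and they turn on genes that bear a short sequence, the hypoxia response element. A part of the response reaches the mitochondria: pyruvate is kept out of the citric acid cycle, subunits of the last respiratory complex are exchanged, and mitochondria are removed by mitophagy. In smooth muscle of the vessel wall the same factors are studied as regulators of the change from a contractile cell to a bone-like one.

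The promoters are shown first, because the core of the hypoxia response element is what HIF reads. Promoter windows of 300 bases (250 before to 50 after the start of the gene) were found in RefSeq (build GRCm38.p6) for 5 of the 8 genes; Ndufa4l2, Cox4i2 and Bnip3l had no entry. The sequences are printed 5′ to 3′ on the strand of the gene. They are those of Higd1a at chr9:121857747-121858046 (minus strand), Pdk1 at chr2:71872974-71873273 (plus strand), Bnip3 at chr7:138909457-138909756 (minus strand), Ak4 at chr4:101419039-101419338 (plus strand) and Fam162a at chr16:36071512-36071811 (minus strand). Capitals mark the cores ACGTG and GCGTG as read on either strand (CACGT and CACGC on the other).
Higd1a: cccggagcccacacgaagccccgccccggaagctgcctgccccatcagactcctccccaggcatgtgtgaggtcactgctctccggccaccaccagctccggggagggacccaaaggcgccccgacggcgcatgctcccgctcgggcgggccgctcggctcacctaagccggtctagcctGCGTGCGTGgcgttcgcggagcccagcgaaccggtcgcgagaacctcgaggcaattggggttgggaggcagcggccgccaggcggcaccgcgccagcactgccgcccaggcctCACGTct
Pdk1: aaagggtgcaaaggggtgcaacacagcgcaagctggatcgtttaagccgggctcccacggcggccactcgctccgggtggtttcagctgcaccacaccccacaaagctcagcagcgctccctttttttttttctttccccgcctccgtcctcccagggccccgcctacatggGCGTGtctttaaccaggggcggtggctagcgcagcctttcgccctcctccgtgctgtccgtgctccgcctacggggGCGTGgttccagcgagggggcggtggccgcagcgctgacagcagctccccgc
Bnip3: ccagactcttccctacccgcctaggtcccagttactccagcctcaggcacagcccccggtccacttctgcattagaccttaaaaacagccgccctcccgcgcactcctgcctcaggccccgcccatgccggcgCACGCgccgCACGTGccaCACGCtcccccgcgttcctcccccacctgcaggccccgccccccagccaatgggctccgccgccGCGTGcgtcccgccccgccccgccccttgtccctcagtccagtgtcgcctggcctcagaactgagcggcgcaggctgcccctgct
Ak4: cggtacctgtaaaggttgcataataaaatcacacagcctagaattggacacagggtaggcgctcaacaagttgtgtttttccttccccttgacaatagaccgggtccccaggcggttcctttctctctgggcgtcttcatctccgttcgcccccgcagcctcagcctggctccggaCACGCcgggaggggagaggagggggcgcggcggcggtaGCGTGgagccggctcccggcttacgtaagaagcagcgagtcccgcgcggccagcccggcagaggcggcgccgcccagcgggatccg
Fam162a: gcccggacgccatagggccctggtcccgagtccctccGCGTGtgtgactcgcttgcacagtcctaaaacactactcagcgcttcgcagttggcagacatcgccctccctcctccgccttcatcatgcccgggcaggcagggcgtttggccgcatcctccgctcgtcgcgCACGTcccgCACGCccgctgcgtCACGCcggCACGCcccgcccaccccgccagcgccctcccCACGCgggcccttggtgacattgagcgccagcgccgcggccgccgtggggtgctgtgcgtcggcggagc
Fam162a held 6 cores, Bnip3 held 5, Higd1a held 3, and Pdk1 and Ak4 held 2 each. In Bnip3 the palindrome CACGTG counts as 2 overlapping cores, and in Higd1a 2 cores share a G. Over all 32851 windows of the same length, 43.8% held at least 1 core and 8.93% held 3 or more. The Pdk1 window shown is the more upstream of 2, and the other held none. The Ak4 window shown is the most upstream of 4. The next 2 overlap it and hold the same 2 cores. The last, at chr4:101419453-101419752, does not overlap it and held 3 cores, with CACGTG. The GC content of the 5 windows lay between 64.3% and 72.7%, and both cores contain CG. Relatives of the 8 genes that are not known for induction by low oxygen held cores too. Higd2a held 3, as Higd1a did. Pdk2 held 2, with CACGTG, in the more upstream of its 2 windows and none in the other. Ndufa4 and Fam162b held 1 each, Ak3 held 0, and Cox4i1 had no entry. A match describes letters and is not a binding site.

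Depth was between 16644000 and 20015000 fragments per library. Replicate 2 of control stood apart, with 10776 genes at 0 against 6384 to 8402 in the other 11 libraries. Replicate 1 of every group had the lowest level of Acta2, smooth muscle actin, at 128 to 245 FPKM against 580 to 1081 in replicates 2 and 3. Summed FPKM of the 9 smooth muscle markers ranged from 208 to 1117 in control, 158 to 1069 in calcification medium, 280 to 878 with vector and 165 to 1224 with the Klotho label, and 8 of the 9 had a mean of at least 1. The summed level of 5 mesothelial markers was 16.9 to 35.4 in control, 64.0 to 181 in calcification medium, 73.4 to 176 with vector and 67.9 to 171 with the Klotho label (4 of the 5 with a mean of at least 1), mostly from Msln and Upk1b; Lrrn4 was at 0 in 3 libraries, all of them control. The 7 adventitial fibroblast markers summed to 477 to 737 FPKM in control, 627 to 1284 in calcification medium, 1022 to 1301 with vector and 916 to 1664 with the Klotho label, mostly from Ly6a; the mean of Pdgfra (15.9 FPKM in control; 12.1, 7.33 and 10.4 in the other groups in that order) and those of Dpt and Cd34 were highest in control. Of the mesothelial list, Upk3b went the other way, with means of 4.89 FPKM in control and 3.65, 3.44 and 4.28 in the other groups. Krt19 differed little (1.39 FPKM in control, and 1.68, 1.78 and 1.60). Control was thus the group with the lowest summed level of mesothelial markers, carried by Msln and Upk1b. As given next, it also had the highest levels of most of the 8 genes. The part of mesothelial cells in those levels was not tested. In bulk RNA, fewer cells of a type and less RNA per cell cannot be told apart.

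Ndufa4l2 encodes a relative of a cytochrome c oxidase subunit that low oxygen induces and that lowers respiration; it is known as a transcript of pericytes and smooth muscle. It lies on chromosome 10 (127350836 to 127353023, plus strand). Gene positions are those of the deposited table, which states no build, and cannot be set beside the promoter positions in GRCm38.p6. Ak4, on the plus strand, ends at 101324192 in the deposited table, while its promoter window starts at 101419039. The level of Ndufa4l2 was 68.1, 25.3 and 32.2 FPKM in control replicates 1 to 3, and 4.61, 2.91 and 2.95 in calcification medium. With vector it was 9.56, 4.25 and 1.92 FPKM, and with the Klotho label 4.04, 3.19 and 2.74. The 3 control libraries lay above all 9 others, and the 3 groups in calcification medium overlapped each other. The mean in calcification medium, 3.49 ± 0.97 FPKM (SD, n = 3), was 8.33% of the 41.9 ± 23.0 in control. The log2 fold change was -3.15 ± 0.43 (SE), the largest in size among the 8 genes. Replicate 1 was the highest library in each of the 4 groups. Its exons share 32 bases with those of Shmt2 on the opposite strand, 2.92% of its length; Shmt2, the mitochondrial serine hydroxymethyltransferase, had means of 24.2 and 28.5 FPKM in the 2 groups.

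Cox4i2 encodes the isoform of cytochrome c oxidase subunit 4 that is known from lung and pulmonary smooth muscle and that low oxygen induces. It lies on chromosome 2 (152596093 to 152606957, plus strand). It was the member that followed the replicate number rather than the group. Control held 1.85, 5.27 and 3.77 FPKM in replicates 1 to 3, calcification medium 0.267, 5.18 and 3.66, vector 1.02, 4.44 and 3.89, and the Klotho label 1.87, 4.29 and 3.99. Replicate 1 was the lowest and replicate 2 the highest in each of the 4 groups, and all groups overlapped. The lowest value rests on 4 fragments, and the highest on 72. Group means ranged from 3.04 ± 2.52 FPKM in calcification medium to 3.63 ± 1.71 in control, a difference smaller than either SD.

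**Figure D1:**
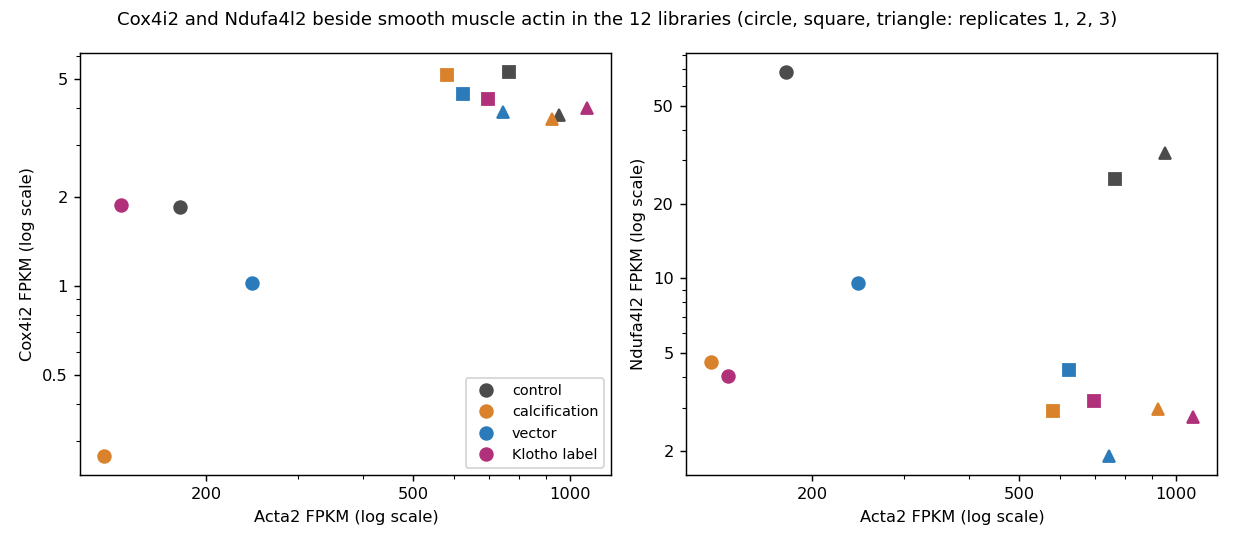
FPKM of Cox4i2 (left) and Ndufa4l2 (right) on the vertical axis against FPKM of Acta2 on the horizontal axis, all on log scales, with 1 point per library, colours for groups and shapes for replicates. The 4 libraries of replicate 1, with Acta2 at 245 FPKM or less, are the 4 lowest in Cox4i2, and in Ndufa4l2 the 3 control libraries lie above the other 9 whatever their Acta2.

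The plot of Cox4i2 and Ndufa4l2 against Acta2 shows the libraries in separate clusters, so no correlation over all 12 is given. Cox4i2 was between 3.66 and 5.27 FPKM in the 8 libraries of replicates 2 and 3, and between 0.267 and 1.87 in the 4 of replicate 1. Myh11, smooth muscle myosin, was likewise lowest in replicate 1 of every group, at 1.32 to 2.58 FPKM against 12.2 to 40.8. The summed level of the 8 pericyte markers in the table (5 with a mean of at least 1) was 88.5 to 130 FPKM over all libraries. It came mostly from Pdgfrb, at 78.8 to 120 FPKM. The defining pericyte markers Kcnj8, Abcc9 and Higd1b were near 0, with Higd1b at 0 in 10 libraries. Single pericyte markers went different ways: Rgs5 had its highest mean in control (3.63 FPKM; 1.71, 0.936 and 1.77 in the other groups) and Cspg4 its lowest (3.20; 4.79, 4.84 and 3.75).

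Higd1a encodes a small protein of the inner membrane that associates with cytochrome c oxidase and is induced by low oxygen. It lies on chromosome 9 (121677629 to 121687428, minus strand). Levels were 20.2, 11.7 and 15.9 FPKM in control, 7.38, 9.88 and 11.4 in calcification medium, 12.1, 12.1 and 13.9 with vector, and 7.32, 7.35 and 10.3 with the Klotho label. Control did not overlap calcification medium or the Klotho label, by a narrow gap in the first case, and it overlapped vector. The 3 vector libraries lay above all 6 libraries of calcification medium and of the Klotho label. Its mean in control was 1.67 times that in calcification medium (log2 fold change -0.67 ± 0.20, SE).

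Pdk1 encodes a kinase that switches off pyruvate dehydrogenase, the enzyme through which pyruvate enters the citric acid cycle. It lies on chromosome 2 (71703568 to 71734202, plus strand). Levels were 5.26, 2.28 and 4.91 FPKM in control, 1.22, 0.819 and 1.26 in calcification medium, 1.38, 0.649 and 0.962 with vector, and 0.832, 0.519 and 0.681 with the Klotho label. Each control library was above all 9 in calcification medium, where no library reached 1.4 FPKM. The mean in calcification medium was 26.5% of that in control, and the log2 fold change of -1.24 ± 0.23 (SE), computed on FPKM + 1, understates a change at this level.

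Bnip3 and Bnip3l encode related proteins of the outer membrane that bind LC3 and mark mitochondria for mitophagy. Bnip3 lies on chromosome 7 (138492565 to 138511248, minus strand). It held 85.0, 52.0 and 82.9 FPKM in control, 49.0, 24.4 and 28.3 in calcification medium, 32.4, 30.9 and 33.6 with vector, and 50.4, 30.6 and 31.5 with the Klotho label. Control stood above all others, but control replicate 2 exceeded replicate 1 of the Klotho label by less than 2 FPKM. Bnip3l, on chromosome 14 (67222688 to 67246326, minus strand), held 26.4, 27.5 and 25.5 FPKM in control, 22.0, 17.4 and 15.0 in calcification medium, 18.9, 15.9 and 14.6 with vector, and 19.7, 19.3 and 18.6 with the Klotho label. Control was above all others for Bnip3l too, with the smallest spread of any member in control (26.4 ± 1.02 FPKM, SD, n = 3). Means in calcification medium were 46.3% of control for Bnip3 and 68.6% for Bnip3l.

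Ak4 encodes the adenylate kinase of the mitochondrial matrix that low oxygen induces. It lies on chromosome 4 (101276474 to 101324192, plus strand). Levels were 7.59, 3.20 and 7.51 FPKM in control, 0.667, 1.27 and 1.63 in calcification medium, 2.97, 0.964 and 2.45 with vector, and 0.721, 0.798 and 1.15 with the Klotho label. Control lay above the other 9 libraries, and vector reached almost as high as control replicate 2. The mean in calcification medium was 19.5% of that in control (log2 fold change -1.65 ± 0.31, SE).

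Fam162a encodes a HIF target also known as HGTD-P, a mitochondrial protein linked to cell death in low oxygen. It lies on chromosome 16 (35864131 to 35891964, minus strand). Levels were 102, 55.3 and 81.6 FPKM in control, 24.9, 29.8 and 42.3 in calcification medium, 52.7, 41.5 and 45.1 with vector, and 28.4, 31.7 and 39.6 with the Klotho label. Control lay above the other 9 libraries, by the least over vector. The Klotho label lay below vector in all 3 libraries and overlapped calcification medium. The mean in calcification medium was 40.7% of that in control. Antisense or opposite-strand genes share 22.5% of the exon bases of Higd1a, 22.3% of Bnip3 and 19.8% of Fam162a in GENCODE M21, and the strand setting of the counting is not given, so their reads cannot be told apart; Wdr5b, the partner of Fam162a, stood near 0.5 FPKM in every group, and the other partners were not analysed here.

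**Figure D2:**
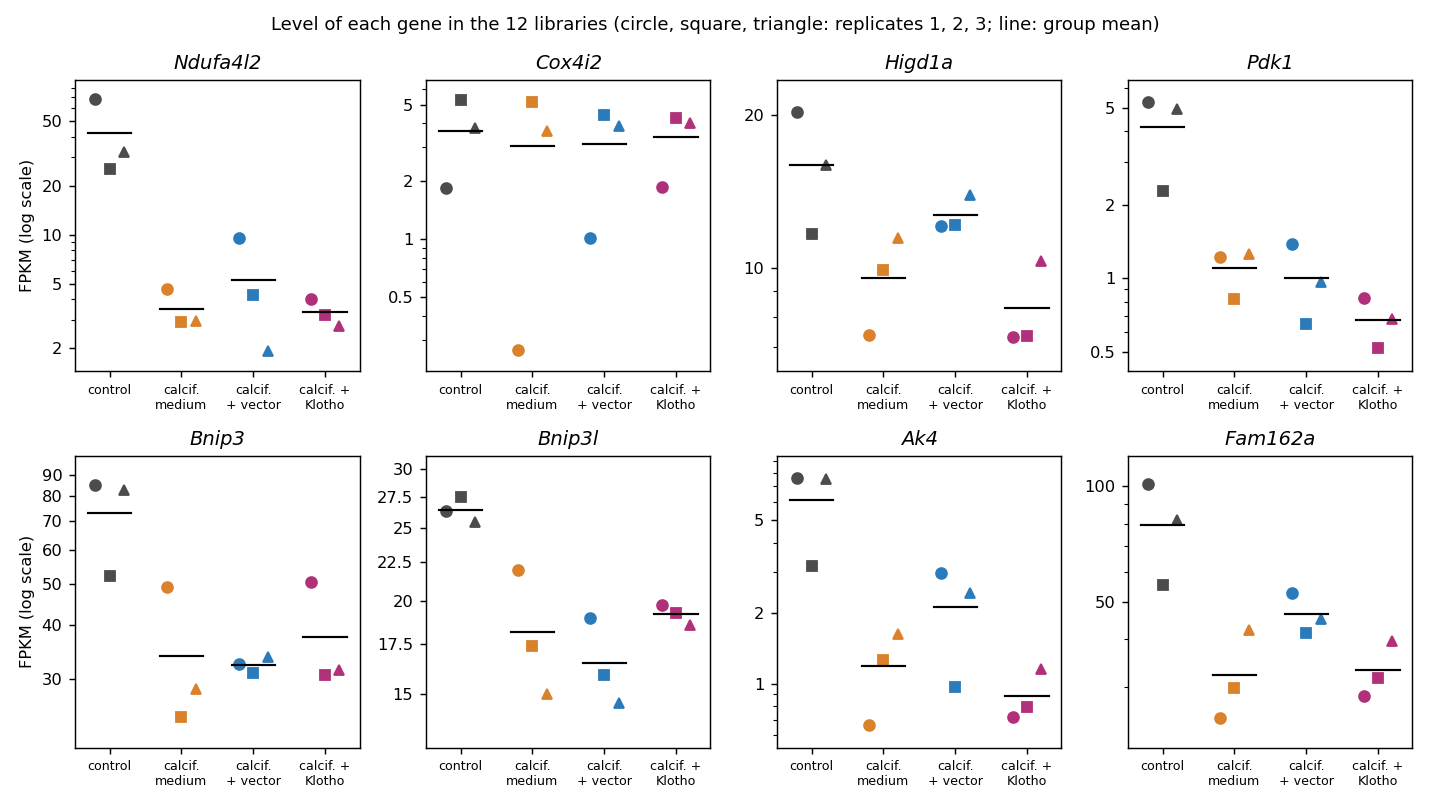
FPKM of each of the 8 genes in the 12 libraries on log scales, with 4 groups on the horizontal axis (control, calcification medium, and that medium with vector or with the Klotho label), shapes for replicates and a line for the group mean. All 3 control libraries lie above all other libraries for 6 genes, Higd1a overlaps between control and vector, and Cox4i2 overlaps between all groups.

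In the plot of levels by library, the order of the group means was control first for all 8 genes. The order of the other 3 groups differed between genes. Vector was the second highest for Ndufa4l2, Higd1a, Ak4 and Fam162a, the Klotho label for Cox4i2, Bnip3 and Bnip3l, and calcification medium for Pdk1. Groups next to each other in this order below control overlapped in range in 6 genes. The exceptions were Higd1a, where vector was above calcification medium, and Fam162a, where vector was above the Klotho label. Replicate 1 was the highest and replicate 2 the lowest control library for 6 genes (Ndufa4l2, Higd1a, Pdk1, Bnip3, Ak4 and Fam162a), so the library with the most genes at 0 was also the lowest control for these.

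Calcification medium against control is the comparison by which the genes were picked, so its values are a description. Over all genes tested, 0.279% were lower at an adjusted p under 0.05 (limma, Benjamini-Hochberg), and 4 of the 8 members were: Ndufa4l2 (adjusted p = 0.0083), Pdk1 (0.0362), Fam162a (0.0362) and Ak4 (0.0401). Bnip3 (adjusted p = 0.124), Bnip3l (0.155), Higd1a (0.232) and Cox4i2 (0.831) did not pass. The median log2 fold change of the 8 was -1.18, beside 0.04 for all genes. In 7 of the 8 every control library was above every calcification library, as in 5.52% of all genes. With the replicate number as a block, 6 of the 8 were called, Bnip3 and Bnip3l being added (background 1.17%). Without control replicate 2, 4 members and 0.186% of all genes were called lower. The number of members was 0 without calcification replicate 2 (all genes 0.0372%), and 1 without control replicate 1 or 3 (0.0651% each). It was also 1 without vector replicate 3 (0.186%) or Klotho-label replicate 2 or 3 (0.177% each). It was 2 without calcification replicate 1 (0.195%), calcification replicate 3 (0.13%) or Klotho-label replicate 1 (0.204%).

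Vector and Klotho label were also set against control, which shares the control libraries with the comparison above, so these values are no second evidence for it. Vector against control called 5 of the 8 lower, where 7.98% of all genes were called lower: Ndufa4l2 (log2 -2.85), Pdk1 (-1.33), Ak4 (-1.17), Bnip3 (-1.12) and Bnip3l (-0.66). Fam162a (-0.73, limma adjusted p = 0.0559) was called with the replicate block (6 of 8; background 14%). Groups did not overlap for 6 of the 8, beside 19.1% of all genes lower in this way. The share of all genes called in this comparison itself rested on single libraries. Without control replicate 2, 4 members and 0.809% of all genes were called lower. Without control replicate 3 these were 1 and 0.688%, without vector replicate 1 they were 3 and 0.92%, and without vector replicate 2 they were 2 and 1.32%.

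For the Klotho label against control, 4 of the 8 were called lower (background 0.297%): Ndufa4l2 (-3.19), Ak4 (-1.84), Pdk1 (-1.57) and Fam162a (-1.20). With the replicate block Higd1a, Bnip3 and Bnip3l were added, which made 7 (background 1.65%). Groups did not overlap for 7 of the 8 (background 8.83%), Cox4i2 being the exception. Without control replicate 2, 4 members and 0.158% of all genes were called lower. The number of members was 1 without control replicate 1 (0.0837%) or 3 (0.0744%) or Klotho-label replicate 2 (0.0837%) or 3 (0.093%), and 2 without Klotho-label replicate 1 (0.214%). Against calcification medium, which again shares libraries with the comparison that chose the genes, vector and the Klotho label called 0 of the 8 (limma; background 0% for both). At an unadjusted p under 0.05 these numbers were 1 and 0, where 14.1% and 3.13% of all genes passed, and limma-voom called 0 in both. Higd1a alone was apart, higher with vector than in calcification medium, as were 6.11% of all genes. The differences from calcification medium ranged from -0.12 (Bnip3l) to 0.53 (Fam162a) for vector, and from -0.32 (Pdk1) to 0.35 (Cox4i2) for the Klotho label.

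**Figure D3:**
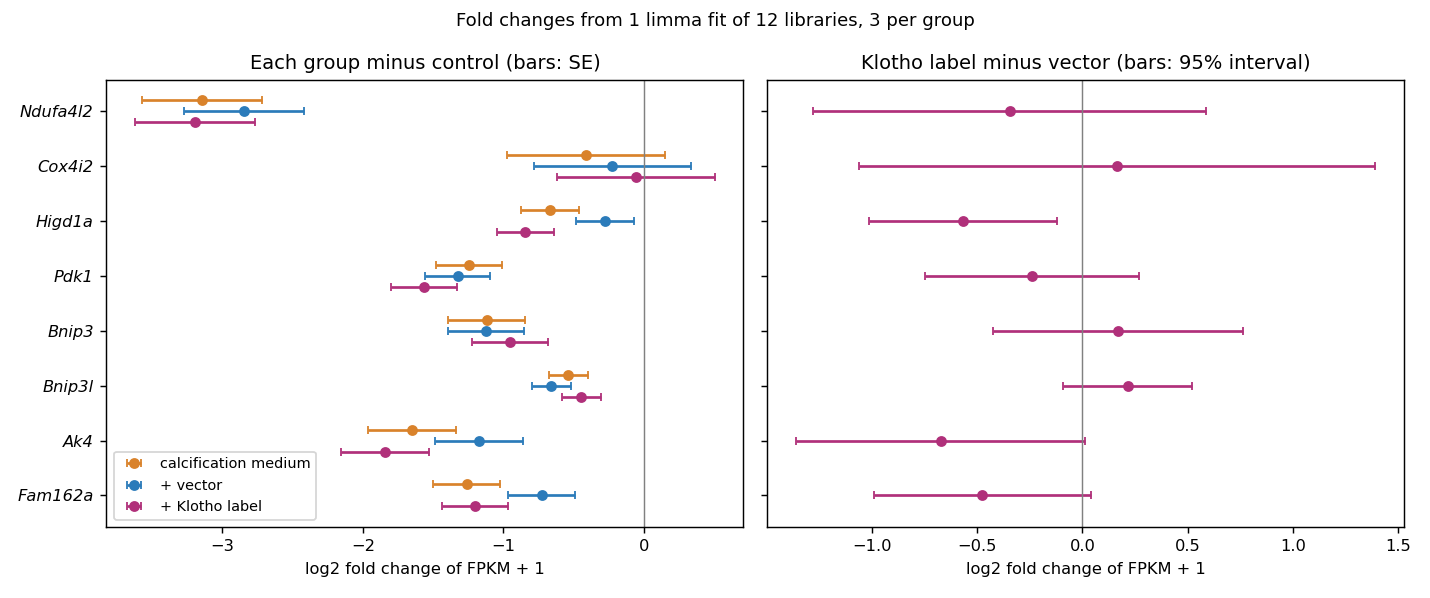
Log2 fold change of FPKM + 1 for each of the 8 genes, from 1 limma fit of 12 libraries. The left panel gives calcification medium, vector and Klotho label minus control with standard errors, and the right panel the Klotho label minus vector with 95% intervals; all left-hand values are below 0, and on the right 7 of the 8 intervals include 0, the interval of Higd1a being the exception.

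The comparison of the Klotho label with vector, both in calcification medium, shares no library with the one that chose the 8 genes and was tested. By limma 0 of the 8 genes passed after adjustment over 10758 genes, and the fit called 0% of all genes in either direction. At an unadjusted p under 0.05 there was 1 member, Higd1a, and 1514 of all genes, 14.1%. Limma-voom called 0 members. With the replicate number as a block, limma called 0 members, 8 genes higher (0.0744%) and 3 lower (0.0279%). At an unadjusted p under 0.05 that fit had 3 members and 2162 of the 10758 genes. The plot of fold changes shows the widths of the intervals from the fit without a block.

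Higd1a stood at 12.7 ± 1.03 FPKM with vector and 8.33 ± 1.73 with the Klotho label (SD, n = 3), and was lower in 3 of 3 libraries. The log2 difference was -0.57 ± 0.20 (SE; 95% interval -1.01 to -0.12; limma adjusted p = 0.276), with an unadjusted limma p of 0.0173. Ak4 stood at 2.13 ± 1.04 and 0.890 ± 0.229 FPKM, a log2 difference of -0.67 (95% interval -1.36 to 0.01; limma adjusted p = 0.362). These groups overlapped, because vector replicate 2 held 0.964 FPKM and Klotho-label replicate 3 held 1.15. Fam162a stood at 46.4 ± 5.73 and 33.3 ± 5.71 FPKM, a log2 difference of -0.48 (95% interval -0.99 to 0.04; limma adjusted p = 0.387). As for Higd1a, its groups did not overlap; 10.4% of all genes were lower without overlap in this comparison.

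For the other 5 genes the groups overlapped. Pdk1 differed by -0.24 (95% interval -0.75 to 0.27), Bnip3l by 0.21 (-0.09 to 0.52) and Bnip3 by 0.17 (-0.42 to 0.77). Ndufa4l2 differed by -0.34 (-1.28 to 0.59) and Cox4i2 by 0.17 (-1.06 to 1.39), which are the widest intervals of the 8. With the replicate number as a block, the SE of Cox4i2 was 0.23 in place of 0.56, and that of Ndufa4l2 0.26 in place of 0.43. With it the limma adjusted p was 0.142 for Higd1a, 0.185 for Ak4, 0.229 for Fam162a and 0.391 for Pdk1. Each of these genes was lower with the Klotho label than with vector in every pair of same-numbered libraries. Bnip3l was higher in every pair, and the direction for Ndufa4l2, Cox4i2 and Bnip3 varied between pairs. In the fit without a block, leaving out 1 library changed the sign of 3 genes. Without vector replicate 1 the difference of Ndufa4l2 was 0.13 and that of Cox4i2 was -0.28, and without Klotho-label replicate 1 that of Bnip3 was -0.06. Such fits leave the replicate numbers unequal between the groups. Replicate 1 was the highest library of Ndufa4l2 and the lowest of Cox4i2 in both groups. The median difference of the 8 was -0.29, beside -0.01 over all genes tested. Transcripts of the mitochondrial genome made up 1.53% to 2.05% of the summed FPKM with vector and 2.88% to 3.28% with the Klotho label; the part of this difference in the values above was not tested.

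Each gene was next set against a relative in the same library, as a ratio of FPKM, which compares levels per length. Ndufa4, the constitutive relative of Ndufa4l2 and a subunit of cytochrome c oxidase, held 52.0 ± 3.16 FPKM in control and 54.2 ± 12.1 in calcification medium. The ratio of Ndufa4l2 to Ndufa4 was 0.517 to 1.23 in control, 0.0432 to 0.0984 in calcification medium, 0.0259 to 0.138 with vector and 0.0365 to 0.0638 with the Klotho label. In control replicate 1, therefore, the induced gene was above its relative, and in calcification medium it was at most 0.0984 of it. Cox4i1, the constitutive subunit 4 isoform, held 248 ± 25.4 FPKM in control, and Cox4i2 was 0.0204 of it at most there and 0.0229 at most in any library.

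Pdk2, another pyruvate dehydrogenase kinase, held 8.25 ± 1.04 FPKM in control and 8.24 ± 0.929 in calcification medium. The ratio of Pdk1 to Pdk2 was 0.250 to 0.693 in control, 0.111 to 0.155 in calcification medium, 0.0834 to 0.140 with vector and 0.0556 to 0.0954 with the Klotho label. The ranges of control and the other groups were apart. Pdk4 was the most abundant of the 4 kinases, with means of 127 ± 34.7 (control) and 160 ± 41.9 FPKM (calcification medium), so Pdk1 was a small part of kinase transcripts in all groups. Ak3, the adenylate kinase of the matrix that uses GTP, held 74.7 ± 8.74 FPKM in control, and the ratio of Ak4 to it was 0.0378 to 0.110 in control, 0.00860 to 0.0367 in calcification medium, 0.0178 to 0.0548 with vector and 0.00950 to 0.0211 with the Klotho label. Control and calcification medium were apart by a narrow gap, and control and vector overlapped.

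Higd2a, the relative of Higd1a, held 127 ± 1.19 FPKM in control, and the ratio was 0.0928 to 0.158 in control, 0.0768 to 0.0956 in calcification medium, 0.0819 to 0.101 with vector and 0.0582 to 0.0856 with the Klotho label. Bnip3 exceeded Bnip3l in all libraries, by 1.89 to 3.26 times in control, 1.40 to 2.23 in calcification medium, 1.71 to 2.30 with vector and 1.59 to 2.56 with the Klotho label. Both of these ratios overlapped between control and calcification medium. Between the Klotho label and vector, all 6 ratios overlapped. Exact two-sided permutation tests of 3 against 3 libraries gave p = 0.2 for Higd1a, Pdk1 and Ak4 and p = 0.8 for Ndufa4l2, Cox4i2 and Bnip3 (adjusted over 6 pairs 0.4 and 0.8), where the smallest p the design allows is 0.1. The number of pairs apart was 3 without vector replicate 2 or Klotho-label replicate 1, and 1 without Klotho-label replicate 3.

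**Figure D4:**
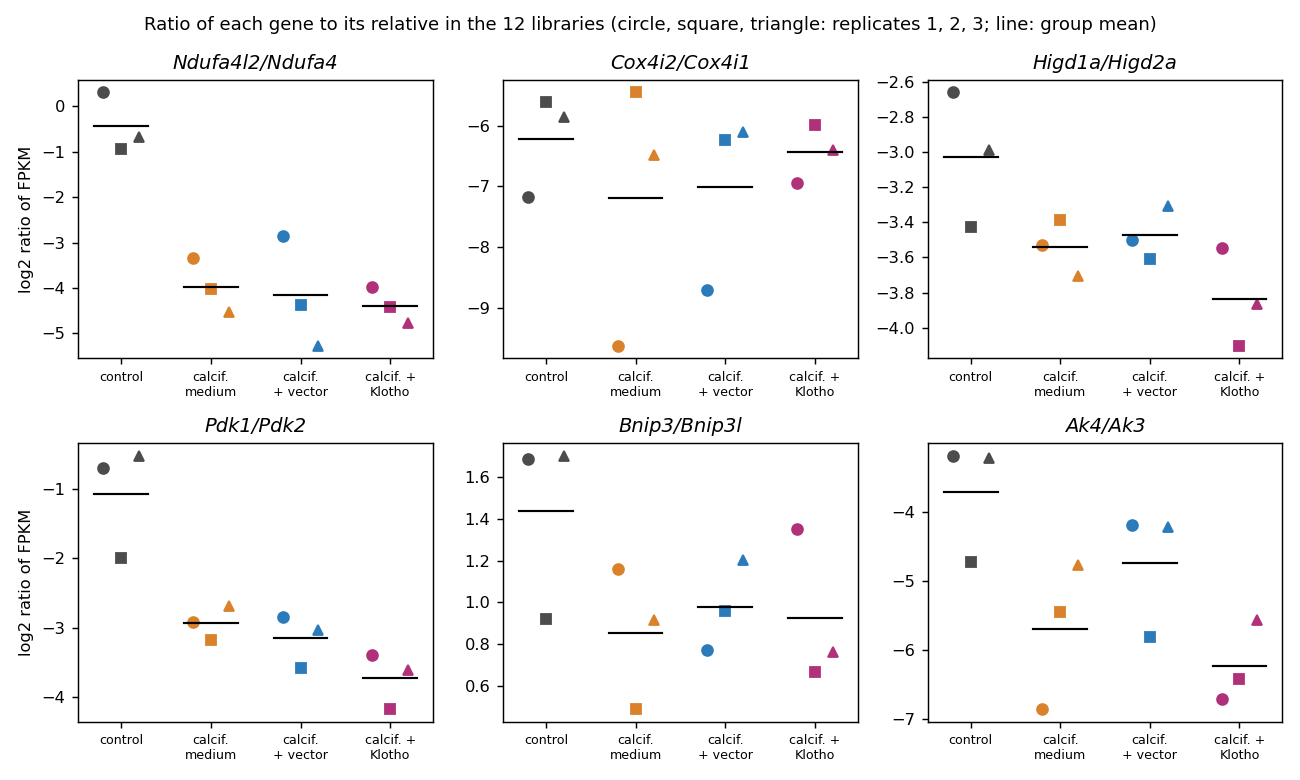
Log2 ratio of the FPKM of each gene to that of its relative in each of the 12 libraries, for 6 pairs, with 4 groups on the horizontal axis, shapes for replicates and a line for the group mean. Control lies above the other 3 groups for Ndufa4l2/Ndufa4 and Pdk1/Pdk2, and no pair separates the Klotho label from vector.

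In the plot of ratios, the pairs of Ndufa4l2 and Pdk1 were those in which control was apart from all 3 other groups. Among 9 tested constitutive relatives, 0 were called in calcification medium against control (median log2 fold change 0.02). Of all genes 0.706% were called there in either direction, so this count does not set the relatives apart from other genes. With vector against control, where 15.4% of all genes were called in either direction, Ndufa4 rose (0.55, limma adjusted p = 0.0392). With the replicate block 2 relatives were called higher there, Ndufa4 and Ak1 (0.59, limma adjusted p = 0.0331), and 1 lower, Ak3 (-0.53, limma adjusted p = 0.0245).

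The regulators and other targets of HIF were read from lists, written with earlier results of these data known. In calcification medium against control 0.706% of all genes were called in either direction. Of 10 HIF subunits and oxygen sensors, Egln3, a prolyl hydroxylase that HIF itself induces, fell (4.56 ± 0.97 to 1.21 ± 0.39 FPKM; log2 -1.33, limma adjusted p = 0.0293). Hif3a, a HIF subunit with inhibitory isoforms, rose (1.21 ± 0.31 to 3.28 ± 0.12 FPKM; log2 0.96, limma adjusted p = 0.0339). The other 8 did not pass, although Egln1, the main prolyl hydroxylase, was called lower with the replicate block (log2 -0.76, limma adjusted p = 0.0783, and 0.0163 with the block). Hif1a, the subunit in the title of the series, held 19.8 ± 3.80 FPKM in control and 15.4 ± 2.39 in calcification medium (log2 -0.34, limma adjusted p = 0.610), and Epas1, which encodes HIF-2α, 22.2 ± 5.88 and 31.8 ± 4.29 (0.52, limma adjusted p = 0.532). With vector against control 15.4% of all genes were called in either direction. Hif1a fell there (19.8 ± 3.80 to 11.3 ± 2.32 FPKM, log2 -0.76, limma adjusted p = 0.0410), as did its partner Arnt (-0.47). The hydroxylases Egln1 (-0.70) and Egln3 (-0.82) fell too, while Hif3a (0.76) and Egln2 (0.48) rose. These are transcript levels, and HIF is regulated mainly as a protein.

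Of 17 tested HIF targets of glycolysis 3 fell and 0 rose in calcification medium against control. They were the lactate exporter Slc16a3 (log2 -2.38), the glycolytic kinase Pgk1 (-1.57) and the phosphofructokinase Pfkl (-1.40), and the median of the 17 was -0.58. Of 21 HIF targets outside glycolysis and mitochondria 1 fell, P4ha1, a collagen prolyl hydroxylase subunit (-0.98), with a median of -0.43. Vegfa, the endothelial growth factor, stood at 11.7 ± 2.30 and 6.60 ± 0.616 FPKM (-0.73, limma adjusted p = 0.134). With the replicate block 6 glycolytic targets and 4 of the other targets were called lower, where 1.17% of all genes were. Vegfa was among the 4 (limma adjusted p = 0.0300).

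The machinery in which the 8 proteins act was read from 5 lists. In calcification medium against control, 0 genes were called among 8 of the pyruvate dehydrogenase complex (median -0.08), 19 mitophagy receptors and LC3 adaptors (-0.03), 14 nuclear subunits of cytochrome c oxidase (0.03), 10 of the Bcl2 family (0.30) and 16 of mitochondrial content such as import receptors and porins (0.03). Of all genes 0.706% were called there in either direction, so these counts of 0 do not set the lists apart from other genes. At the same threshold with the replicate block, 3 of the Bcl2 family were called higher, and 0 in the other 4 lists, where 2.74% of all genes were called higher. With vector against control, where 15.4% of all genes were called, Pdpr and Pdha1 of the pyruvate dehydrogenase list fell (-0.85 and -0.68), and Phb2 and Sqstm1 of the mitophagy list rose (0.71 and 0.63). Bok and Bbc3 of the Bcl2 family rose as well (1.31 and 0.63). With the block, 6 of 10 Bcl2 genes were called higher and 3 mitophagy genes lower (Ulk1, Nbr1 and Tax1bp1), where 15.8% of all genes were called higher and 14% lower. The block also called Ndufa4, Cox6a1 and Cox7a2l of cytochrome c oxidase higher, and Tomm40 of mitochondrial content. The lists of HIF targets had 3 glycolytic genes lower and 1 higher with vector against control (7 and 1 with the block), and 7 of the other targets lower (11 with the block).

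In the Klotho label against control, which shares the control libraries, the same 9 lists were counted. Of all genes 0.474% were called higher and 0.297% lower. Hif3a was called higher (0.94), and Egln1 (-0.89) and Egln3 (-1.40) lower. Slc16a3 (-2.71), Pfkl (-1.68) and Pgk1 (-1.46) of the glycolytic targets were lower, and Vegfa (-1.31) and P4ha1 (-1.11) of the other targets. With the block these lists had 6 and 7 called lower, where 1.65% of all genes were. In the relatives and the 5 lists of mitochondrial machinery 0 were called, and with the block 3 were called higher, Fundc1, Pmaip1 and Bid (all genes 3.16%).

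For the Klotho label against vector 0 genes of any of these lists were called. Fold changes were negative for 16 of 17 glycolytic targets (median -0.26) and for 14 of 14 subunits of cytochrome c oxidase (median -0.22). They were positive for 6 of 8 genes of the pyruvate dehydrogenase complex (median 0.25). Of all genes tested 51.2% were negative, and these directions were not tested. Hif1a stood at 11.3 ± 2.32 FPKM with vector and 15.9 ± 4.30 with the Klotho label (log2 0.45, limma adjusted p = 0.383). Egln3 (-0.58, limma adjusted p = 0.309) and Vegfa (-0.45, limma adjusted p = 0.309) did not pass either.

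**Figure D5:**
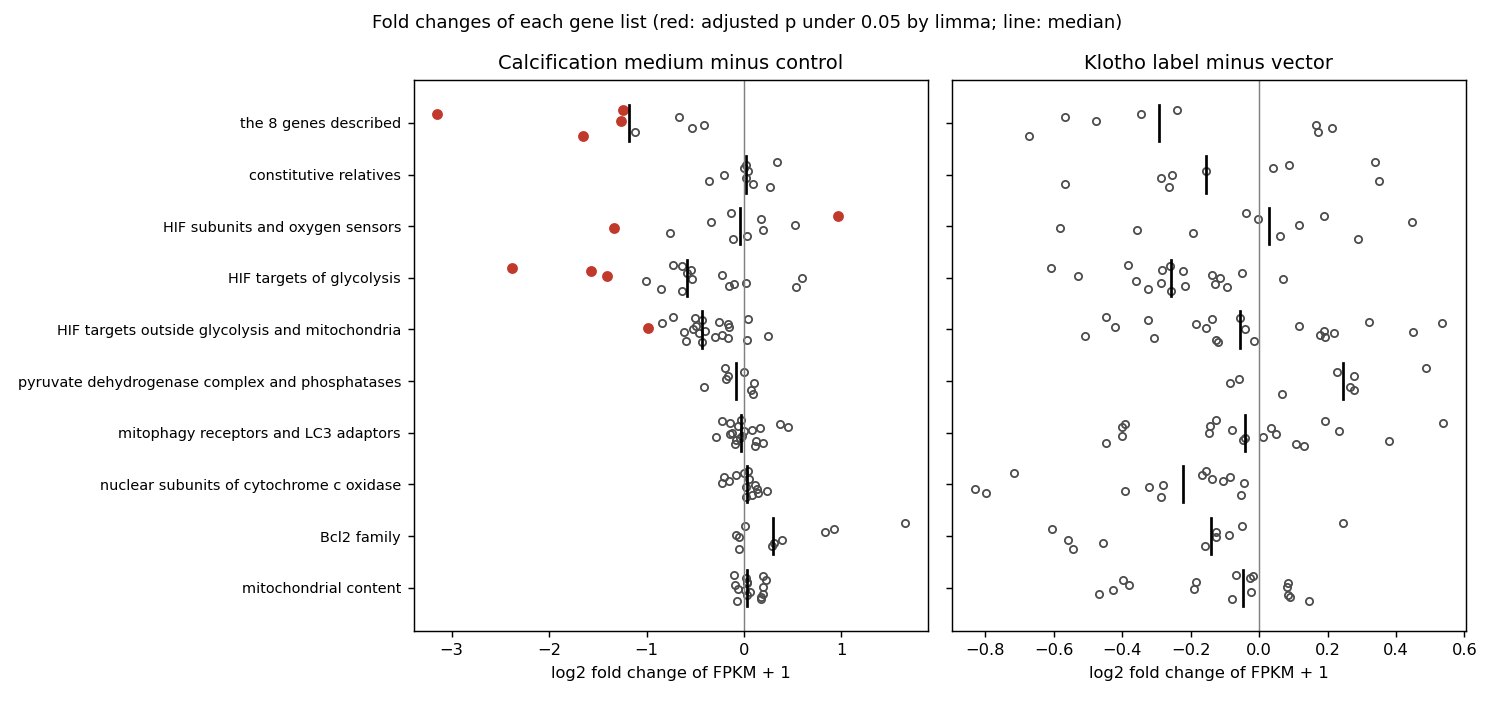
Log2 fold change of FPKM + 1 of each gene of the 8 described and of 9 lists, for calcification medium minus control (left) and Klotho label minus vector (right), with a filled red point for an adjusted p under 0.05 by limma and a line for the median. On the left the 8 genes have a median of -1.18 and the glycolytic targets -0.58, while cytochrome c oxidase subunits are at 0.03; on the right no point is filled.

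The plot of lists sets the 8 genes beside the rest of the pathway and beside other mitochondrial genes. The genes with the pattern most like the 8 were ranked over the 12 libraries, by Pearson's r with the mean of their standardized log2(FPKM + 1), among 6379 genes that averaged 5 FPKM or more. They were Pgk1 (r = 0.971), Rftn1 (0.965), Pfkl (0.957), P4ha1 (0.929), Carhsp1 (0.921) and Dhrs3 (0.917). The libraries of a group share their treatment, so r is given as a description. Rftn1, a lipid raft protein, held 19.4 ± 0.45 FPKM in control, 14.5 ± 0.53 in calcification medium, 15.8 ± 0.41 with vector and 14.8 ± 0.21 with the Klotho label. Dhrs3, a retinal reductase, held 15.1 ± 2.52, 7.16 ± 0.479, 8.45 ± 0.945 and 7.37 ± 0.259 FPKM in the same order. The standardized mean of the 8 was 0.773 to 1.54 in control and between -0.682 and -0.080 in the other 9 libraries.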

How the data were processed

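RNA-seq of 12 libraries in 4 groups of 3 was analysed. The authors deposited FPKM values in 1 table: fragment numbers already divided by gene length and library size, as read from the deposited values, since the header gives no unit. With exon lengths of GENCODE M21, 98.06% to 98.32% of values under 100 fragments came out whole within 0.05 of a fragment (10% by chance). CASAVA 1.8.2, STAR 2.4 and DESeq2 3.12 were used, and GRCm38 and GRCm39 are named, per the submitters' processing notes, with no role given; for the counting tool, the annotation and strand, the entry is "not given in the sources used here".

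From these values, limma 3.58.1 (R 4.3.3) with a mean-variance trend was fitted to log2(FPKM + 1) of the 10758 genes averaging 1 FPKM or more, with all 12 libraries in 1 fit, 1 coefficient per group and Benjamini-Hochberg adjustment. Calls were made at an adjusted p under 0.05. This scale understates the change of low genes. The fit was also run on simulated data that held no effect of the replicate number, so that run cannot show how it handles one. Its outcome is not reported here. The members and the gene lists were chosen with earlier results of these data known. The Klotho label against vector is the only contrast of the members that was tested, because the others share libraries with the contrast that chose them. Named were the 8 members, the genes of each pair, up to 4 called genes of each list in calcification medium against control, Hif1a, Epas1, Egln3 and Vegfa, and the 6 genes most alike; other list genes, Pdk4 and single markers were named after their values were seen.

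Replicate numbers were taken from the labels, where their meaning is not explained. Same-numbered libraries deviated together (correlations of deviations from group means across genes of 0.199 to 0.509 for calcification against control, 0.403 to 0.537 for vector against control, 0.242 to 0.571 for the Klotho label against control and 0.573 to 0.731 for the Klotho label against calcification), so members' values and list counts with the number as a block are given there where they differ. Alternatives were another pseudocount, no filter, upper-quartile scaling, limma-voom on recovered fragments, correction for GC content and length, fewer libraries, and leaving out each library in turn.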

Additional observations from a re-analysis of the deposited data

How the results depend on the processing

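For the Klotho label against vector, as for both comparisons with calcification medium, 0 of the 8 genes were called under every alternative and without any single library. The number called in calcification medium against control (4) was 2 with a pseudocount of 0.1, 1 with no filter, 0 with the libraries of the 2 groups alone, 2 with replicates 2 and 3 alone, 7 with the block plus the GC and length correction chosen after seeing the data, and 0 to 4 without 1 library. For vector against control (5) it was 3 with no filter and 1 to 6 without 1 library. For the Klotho label against control (4) it was 2 with no filter, 7 with the replicate block, 7 with the block and GC and length correction, 1 with the libraries of the 2 groups, 1 with replicates 2 and 3, and 1 to 4 without 1 library. No filter tests more genes, and the reduced sets have fewer samples. The block called 6 members in calcification medium against control and 6 in vector against control. Correlations of same-numbered libraries were 0.00556 to 0.522 between the Klotho label and vector, and -0.0635 to 0.497 between vector and calcification medium. Replicate 1 was nevertheless the lowest in Acta2 and Cox4i2 in every group. Whether the numbers pair the libraries there was not settled, and the block called 0 members in both comparisons. With replicates 2 and 3 alone, the differences between the Klotho label and vector were 0.0162 for Ndufa4l2, -0.00500 for Cox4i2 and -0.0537 for Bnip3; without 1 library they ranged from -0.79 to 0.13, from -0.28 to 0.45 and from -0.0559 to 0.295. The cause was not tested. The number of ratios whose ranges were apart (0) was 0 to 3 without 1 library, and the log2 ratio differences ranged from -0.78 to 0.43 for Ndufa4l2, -0.27 to 1.03 for Cox4i2 and -0.265 to 0.0790 for Bnip3.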
